A study of Mus musculus with 6 samples.

Results

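The 74 genes described here bear the names of the SLC5, SLC13, SLC20, SLC22, SLC26, SLC34, SLC47 and SLCO families. These families include carriers that move glucose, phosphate, sulfate, iodide and organic ions across the membranes of kidney tubule cells. All 74 are called carriers here, although Slco6b1 is a pseudogene. They were every gene of the table whose symbol carries one of these family stems, 74 of 55487. Of these, 32 had enough counts to be tested among 13755 tested genes, and 42 did not. The untested ones comprised 22 listed at 0 in all 6 libraries and 20 with at least 1 count.

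RNA was sequenced in bulk from primary mouse renal tubular epithelial cells, that is, cells grown directly from kidney and not an established line. The 3 knockout libraries came from cells given an adenovirus with Cre recombinase to delete Elf3, the gene of an epithelial transcription factor of the ETS family. The 3 control libraries, whose genotype is labelled wild type, came from cells given a control adenovirus. All 6 carried the same TNFα and IFNγ exposure and the same batch label, and there was no arm without cytokines, so every comparison is of cytokine-exposed cells. The mouse strain and age, the floxed segment, what the control virus carries and how many animals gave cells are not given in the labels. Nothing says that the 3 libraries of a group came from separate cultures, so the p-values measure the spread between these libraries, which may be technical.

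Tubule cells take up filtered solutes by coupling them to the sodium gradient that the sodium pump maintains. In the proximal tubule the SGLT carriers of the SLC5 family recover glucose, the SLC34 carriers recover phosphate under the control of parathyroid hormone and FGF23, and the SLC13 carriers recover sulfate, citrate and dicarboxylates. Organic anion and cation carriers of the SLC22, SLC47 and SLCO families pass drugs, toxins, hormones and carnitine between blood and urine, and SLC26 proteins exchange chloride, sulfate, oxalate, bicarbonate or iodide.

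Total estimated counts per library lay between 8961779 and 10774195, and a floor of 3 counts stood for 0.282 to 0.337 CPM (counts scaled by library size, after TMM scaling). Elf3 itself (chromosome 1, 135253575 to 135258568, minus strand; this and later positions are on mm10) had 4.26, 3.01 and 2.03 CPM in the knockout libraries and 18.9, 24.3 and 22.8 CPM in the controls. Its groups did not overlap, and its log2 fold change was -2.84 (adjusted p = 6.84e-14). Each adjusted p given comes from the quasi-likelihood test of edgeR, adjusted over all tested genes by Benjamini-Hochberg. Epithelial markers were high in both groups when summed. The 6 pan-epithelial genes came to between 6211 and 6402 TPM (a level per transcript length, scaled to the same sum in each library) in the knockout and between 4448 and 4555 TPM in the controls. Most of that sum was the keratin genes Krt8, at 2846 TPM in the knockout and 2080 TPM in the controls, and Krt18, at 2621 and 1604 TPM. Pax8 averaged 73.6 TPM in the knockout and 94.1 TPM in the controls, and Cdh16 103.5 and 126.9 TPM. Those 2 were lower and the other 4 higher. Of 16 proximal tubule markers, 9 were tested, 5 were lower, 1 was higher, and Miox and Slc22a6 were at 0 in every library. Slc34a1, Slc5a2, Slc22a6, Slc22a8 and Slc13a3 of that list are carriers described here. The summed level of the 16 markers ranged between 54.7 and 62.4 TPM in the knockout and between 89.8 and 97.45 TPM in the controls. Markers of leukocytes summed to between 29.4 and 49.0 TPM in the knockout and between 35.0 and 40.5 TPM in the controls, and those of fibroblasts to between 31.02 and 38.1 TPM in the knockout and between 32.2 and 33.3 TPM in the controls.

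Deletion of Elf3 went with a higher level of 9 of these carriers and a lower level of 6, while 17 tested carriers did not pass. The higher ones were the phosphate carriers Slc20a1 and Slc20a2, the iodide carrier Slc5a5, the inositol carrier Slc5a3, the chloride transporter Slc26a9, the orphan Slc22a23, and Slco2a1, Slco5a1 and Slco1a5 of the organic anion transporting polypeptides. The lower ones were the sulfate and oxalate exchanger Slc26a1, Slc26a7, the carnitine carrier Slc22a5, the proton-coupled exporter Slc47a1, and Slco3a1 and Slco1a6. A gene is called higher or lower where its adjusted p lies under 0.05. The 15 called carriers made up 46.9% of those tested, beside 36.6% of all tested genes. Higher calls made up 28.1% of the tested carriers beside 18.3% of all tested genes, and lower calls 18.8% beside 18.3%. The median log2 fold change was 0.16 over the 32 tested carriers and -0.01 over all tested genes. The groups did not overlap for 16 of the 32, beside 46.7% of all tested genes. In bulk samples, fewer cells that express a gene and less of its RNA per cell cannot be told apart.

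Most calls were of modest size: 6 of the 15 differed by 2-fold or more and 9 by less. The 6 were Slc5a5, Slc26a9 and Slco1a5, which were higher, and Slc26a1, Slc26a7 and Slco1a6, which were lower. Among the 20 tested carriers with a mean of at least 5 CPM in either group, 7 were higher, 3 lower and 10 not called. Among the 12 below that level, 2 were higher, 3 lower and 7 not called. Over all tested genes, at any level, 18.3% were called in each direction. The share of all genes above or below this cut was not counted, so these carrier counts have no matched background. When only genes with a mean of at least 5 CPM over all 6 libraries were tested, 7 carriers were higher and 3 lower. These were not all the same carriers. Of the 15 calls 9 were kept, and Slc5a6 was newly called higher (adjusted p = 0.0478). The other 6, Slc5a5, Slc26a9, Slco1a5, Slc26a1, Slc26a7 and Slco1a6, were too low to be tested that way. Over all 11070 genes tested that way, 2240 were higher and 2230 lower.

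**Figure D1:**
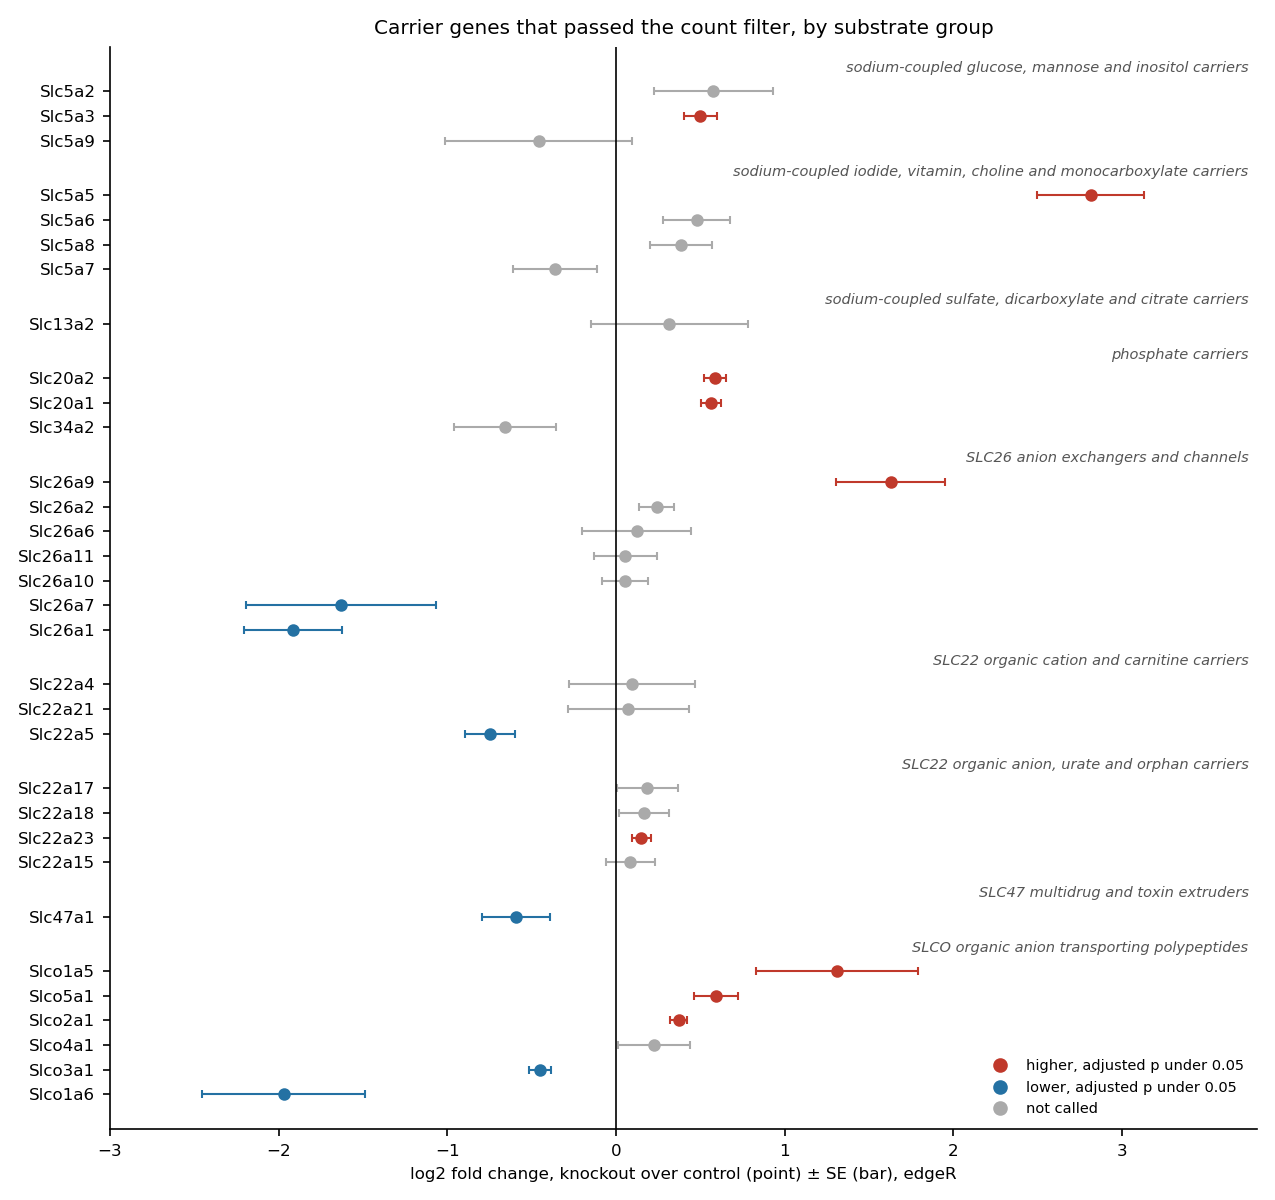
The plot of fold changes gives the log2 fold change of knockout over control on the horizontal axis for each of the 32 tested carriers, 1 per line under its substrate group, with bars of 1 SE on either side, in red for higher, blue for lower and grey for not called. The 9 higher carriers sit right of 0 and the 6 lower ones left of it, and Slc5a5 lies farthest to the right at 2.81.

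The widely expressed phosphate carriers Slc20a1 and Slc20a2, known as PiT1 and PiT2, were both higher in the knockout, while the kidney phosphate carriers of the SLC34 family were near the floor in both groups. Of 5 phosphate carriers 3 were tested, of which 2 were higher and 1 was not called. Slc20a1 (chromosome 2, 129198764 to 129211616, plus strand) had 132, 144 and 139.6 CPM in the knockout libraries and 89.7, 98.0 and 93.5 CPM in the control libraries. All 3 knockout libraries lay above all 3 controls, and the level was 1.48-fold higher (log2 fold change 0.56, SE 0.06, adjusted p = 4.81e-09). Slc20a2 (chromosome 8, 22476788 to 22569612, plus strand) had 103, 105 and 115 CPM in the knockout and 67.8, 73.1 and 74.6 CPM in the controls. Again the groups did not overlap, and the rise was 1.499-fold (log2 fold change 0.58, SE 0.07, adjusted p = 1.55e-08). Exons of both overlap those of tested genes on the opposite strand, 9830144P21Rik over 8.10% and Gm4430 over 5.02% of the exon length of Slc20a1, and Smim19 over 1.53% of that of Slc20a2, so their counts are uncertain to that extent. Per transcript length, Slc20a1 averaged 91.3 ± 4.30 TPM in the knockout and 65.7 ± 7.03 TPM in the controls, and Slc20a2 averaged 61.3 ± 5.73 TPM in the knockout and 40.4 ± 1.31 TPM in the controls (SD, n = 3 each).

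The ratio of Slc20a1 to Slc20a2 TPM was 1.49 ± 0.0769 in the knockout and 1.63 ± 0.201 in the controls (SD, n = 3 each). Together they held 37.9 ± 0.402% of the summed TPM of the 74 carriers in the knockout and 31.3 ± 1.17% in the controls (SD, n = 3 each). Slc34a2, the phosphate carrier best known from gut and lung, had 1.80, 2.16 and 3.28 CPM in the knockout and 5.28, 3.304 and 2.87 CPM in the controls. Those groups overlapped through knockout replicate 3 and control replicate 3, and the log2 fold change of -0.66 (95% interval -1.25 to -0.07) did not pass after adjustment (adjusted p = 0.0861). Slc34a1, the main phosphate carrier of the proximal tubule brush border, had 1 count over the knockout libraries and 0 over the controls, and Slc34a3 was at 0 in all 6. The summed SLC34 level was 1.05 ± 0.338 TPM in the knockout and 1.61 ± 0.537 TPM in the controls (SD, n = 3 each), against 153 ± 9.95 TPM in the knockout and 106 ± 6.67 TPM in the controls for the PiT carriers.

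Of 11 listed receptors of phosphate hormones and genes of phosphate export and calcification, 10 were tested, of which 3 were higher, 1 was lower and 6 were not called (median log2 fold change -0.14). Fgfr1, a receptor of FGF23, was 1.97-fold higher (adjusted p = 2.03e-15). The secreted glycoprotein gene Stc2 was 1.98-fold higher (adjusted p = 7.70e-09), and Ank, which exports pyrophosphate or its precursor, was 1.45-fold higher (adjusted p = 2.61e-05). Fgfr4, another FGF receptor of the kidney, was 1.57-fold lower (adjusted p = 0.0117). The phosphate exporter Xpr1 and the parathyroid hormone receptor Pth1r were not called.

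The sodium-coupled glucose carriers of the kidney gave few counts, and the inositol carrier Slc5a3 was the one carrier of its group of 6 that passed, with 2 others tested and not called. Slc5a3 (chromosome 16, 92058322 to 92087473, plus strand), which takes up myo-inositol as an osmolyte, had 34.4, 43.4 and 39.4 CPM in the knockout and 29.9, 29.2 and 23.7 CPM in the controls. The lowest knockout library lay above the highest control, and the rise was 1.41-fold (log2 fold change 0.50, SE 0.10, adjusted p = 0.000154). It is an uncertain value: counts were fractional in 2 libraries, and 159 bases of its exons overlap those of Mrps6 on the same strand, which was itself higher at 57.3 ± 4.58 CPM in the knockout and 43.4 ± 0.860 CPM in the controls (SD, n = 3 each; log2 fold change 0.40, adjusted p = 0.000109). On the authors' TPM the Slc5a3 call was lost (adjusted p 0.111 to 0.215).

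Slc5a2, which encodes SGLT2 of the early proximal tubule, had 2.47, 3.38 and 2.61 CPM in the knockout and 3.02, 0.972 and 1.66 CPM in the controls. Control replicate 1 lay within the knockout range, and the difference was not called (log2 fold change 0.58, 95% interval -0.11 to 1.27, adjusted p = 0.208). Exons of BC017158 on the opposite strand cover 20.6% of Slc5a2's exon length. BC017158 averaged 24.8 CPM in the knockout and 24.8 CPM in the controls, so the Slc5a2 counts are uncertain. Slc5a1, which encodes SGLT1 of the late proximal tubule and the gut, had 1 count over the knockout libraries and 10 over the controls, a knockout to control ratio of 0.1002 (95% exact interval 0.00231 to 0.704, counting error only), and was too low to be tested. Slc5a9, a mannose and fructose carrier, lay between 0.188 and 1.26 CPM over the 6 libraries and was not called (adjusted p = 0.548). Slc5a10 had 0 counts over the knockout and 3 over the controls, and Slc5a11, a second inositol carrier, was at 0.

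Facilitative carriers let glucose leave or enter without sodium. Of 11 listed, 7 were tested, 3 were higher, 1 was lower and 3 were not called (median log2 fold change 0.44). Slc2a3, a high-affinity glucose carrier, was 2.99-fold higher (adjusted p = 0.000403) but averaged only 3.21 ± 0.0971 CPM in the knockout and 1.07 ± 0.0896 CPM in the controls (SD, n = 3 each). The urate carrier Slc2a9 was 1.98-fold higher (adjusted p = 1.2e-05), and Slc2a1, the widespread GLUT1, 2.03-fold higher (adjusted p = 9.62e-18). Slc2a2, the basolateral glucose carrier of the early proximal tubule, was 2.21-fold lower, at 0.902 ± 0.0357 CPM in the knockout and 2.02 ± 0.626 CPM in the controls (SD, n = 3 each; adjusted p = 0.0247). The Slc2a2 call was lost with DESeq2 (adjusted p = 0.0696), on TPM (0.118 to 0.155), without any 1 of the 3 knockout libraries (0.0601, 0.0659 and 0.0736 for replicates 1, 2 and 3) and without control replicate 2 (0.142) or 3 (0.0740).

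Of 7 listed osmolyte genes 5 were tested, of which 2 were lower and 3 were not called (median log2 fold change -0.11). The neutral amino acid carrier Slc38a2 was 1.18-fold lower (adjusted p = 0.000368) and the chaperone Hspa4l 1.22-fold lower (adjusted p = 0.00115). The taurine carrier Slc6a6 and the aldose reductase gene Akr1b3 were not called. Nfat5, the tonicity-responsive factor that drives such genes, was 1.32-fold higher (adjusted p = 7.53e-08).

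Slc5a5, the sodium iodide symporter known from the thyroid, had the largest fold change of the 32 tested carriers. The 250 bases before its most upstream RefSeq start (GRCm38.p6, chr8:70892758-70893007, minus strand, 5′ to 3′) are shown with the ETS core AGGAAG, read here on the other strand as CTTCCT, in capitals. ETS proteins bind sites built around GGAA, and the letters alone do not show binding.
Slc5a5: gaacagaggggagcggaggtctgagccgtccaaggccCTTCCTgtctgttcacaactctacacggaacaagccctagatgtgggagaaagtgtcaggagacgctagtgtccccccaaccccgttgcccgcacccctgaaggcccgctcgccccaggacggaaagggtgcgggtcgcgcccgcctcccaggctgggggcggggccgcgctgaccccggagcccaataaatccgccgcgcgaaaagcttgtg

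Slc5a5 (chromosome 8, 70882889 to 70892757, minus strand) had 6.17, 5.45 and 6.18 CPM in the knockout and 1.22, 0.680 and 0.552 CPM in the controls. All knockout libraries lay above all controls, with 55, 58 and 64 estimated counts in the knockout and 13, 7 and 5 in the controls. The log2 fold change was 2.81 (SE 0.32, 7.03-fold, adjusted p = 1.72e-08). Its level stayed low beside the phosphate carriers, at 3.68 ± 0.244 TPM in the knockout and 0.507 ± 0.223 TPM in the controls (SD, n = 3 each).

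Other genes known from thyroid follicles moved in both directions. Of 5 such markers 3 were tested, 2 were higher and 1 was lower, and the thyroid factor gene Nkx2-1 was at 0 in every library. Tshr, the thyrotropin receptor, had 1.122, 1.22 and 1.26 CPM in the knockout and 0, 0.291 and 0.110 CPM in the controls (log2 fold change 3.06, adjusted p = 0.000598). Its controls sum to 4 counts and its knockout libraries to 36. Tg, the thyroglobulin gene, was 1.59-fold higher (adjusted p = 0.0475), and Pax8, a factor that kidney and thyroid share, was 1.37-fold lower.

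The other 3 tested carriers of vitamins, choline and monocarboxylates were not called. Slc5a6, which takes up biotin and pantothenate, had 7.85, 6.30 and 7.34 CPM in the knockout and 4.71, 4.66 and 6.07 CPM in the controls. Exons of Atraid on the opposite strand cover 9.92% of its exon length. Its groups did not overlap, but the log2 fold change of 0.48 (95% interval 0.09 to 0.87) did not pass (adjusted p = 0.0591), while it did at a mean of at least 5 CPM (adjusted p = 0.0478), without knockout replicate 2 (0.0461) and without control replicate 3 (0.0368). Slc5a8, a lactate and short-chain fatty acid carrier, had 8.19, 8.74 and 9.46 CPM in the knockout and 7.82, 7.19 and 5.08 CPM in the controls, again without overlap (log2 fold change 0.39, 95% interval 0.03 to 0.74, adjusted p = 0.0998).

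Slc5a7, the high-affinity choline carrier, had 3.37, 3.48 and 5.12 CPM in the knockout and 5.37, 6.32 and 3.64 CPM in the controls. The groups overlapped (log2 fold change -0.36, 95% interval -0.85 to 0.13, adjusted p = 0.269). On the TPM table its direction was the opposite, with 1.42, 1.38 and 5.85 TPM in the knockout and 2.04, 2.32 and 1.30 TPM in the controls, where knockout replicate 3 stood apart. Slc5a12, the second monocarboxylate carrier of the family, had 7 counts over the knockout and 4 over the controls and was not tested.

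**Figure D2:**
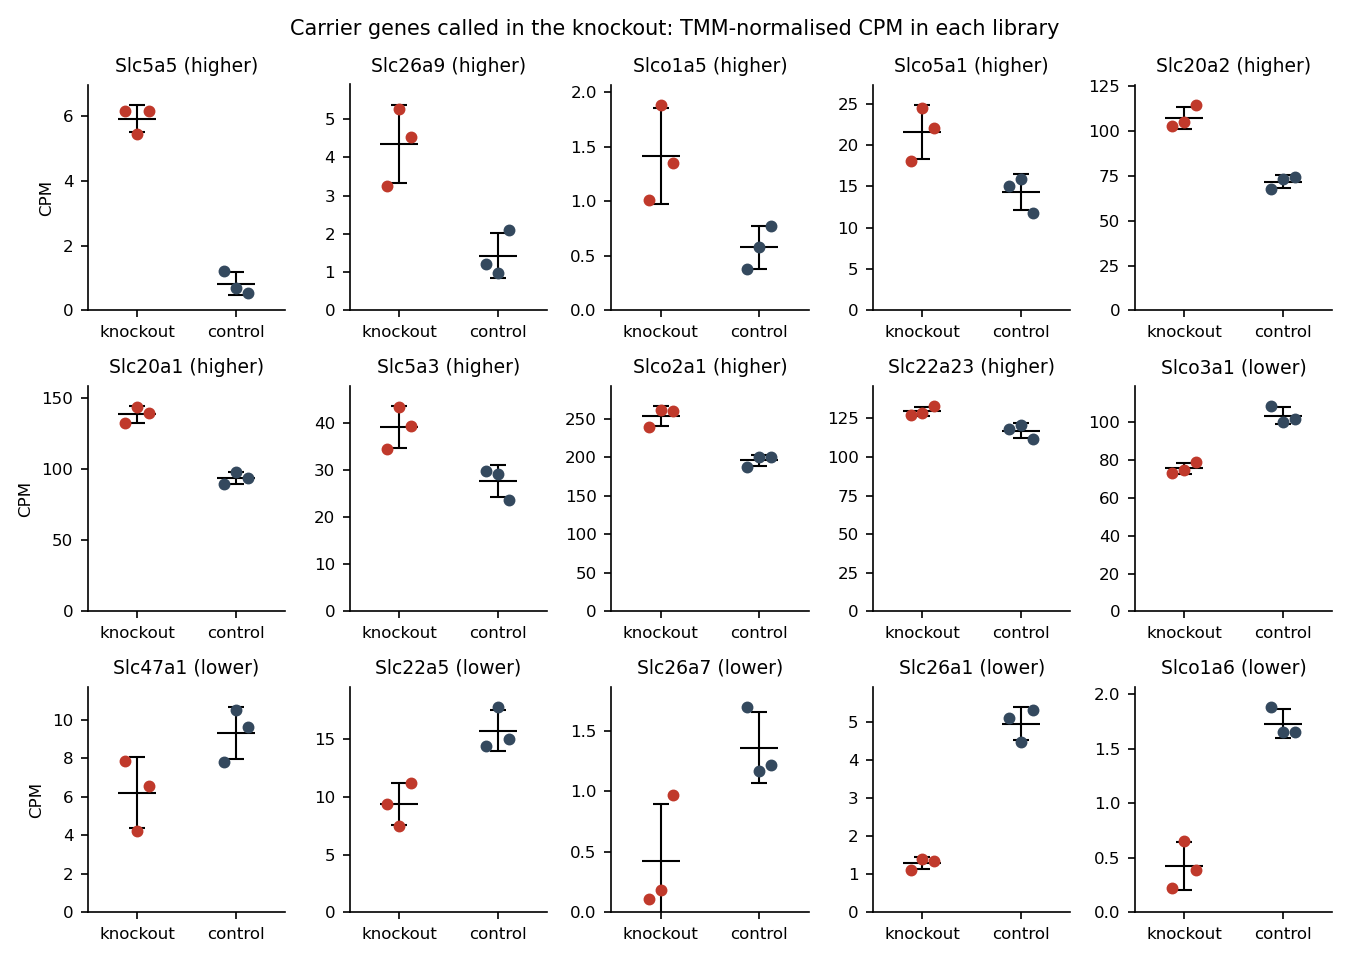
The panels show TMM-normalised CPM from 0 in each library for the 15 called carriers, from the largest rise to the largest fall, with 1 point per library, knockout left of control, a line at the group mean and bars of 1 SD (the lower bar of Slc26a7 in the knockout runs below 0). The points of the groups are apart for 14 of the 15, and for Slc47a1 the highest knockout library at 7.85 CPM lies level with the lowest control at 7.82 CPM.

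Slc26a1, the basolateral sulfate and oxalate exchanger of the proximal tubule, fell by more than any other carrier whose call held under every processing choice that could be fitted. Of the 11 SLC26 genes 7 were tested, of which 1 was higher, 2 were lower and 4 were not called. Slc26a1 (chromosome 5, 108669878 to 108675569, minus strand) had 1.122, 1.41 and 1.35 CPM in the knockout and 5.09, 4.47 and 5.30 CPM in the controls. Each knockout library lay far below each control, with 10, 15 and 14 counts in the knockout and 54, 46 and 48 in the controls. It was 3.77-fold lower (log2 fold change -1.92, SE 0.29, adjusted p = 3.71e-06). Its exons share 141 bases, or 3.48% of their length, with Idua on the opposite strand, which was not called at 9.93 ± 1.13 CPM in the knockout and 10.6 ± 0.262 CPM in the controls (SD, n = 3 each). Nothing in the labels says if reads were counted by strand.

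Slc26a7, a chloride and iodide carrier of collecting duct intercalated cells and of the thyroid, had 0.112, 0.188 and 0.966 CPM in the knockout and 1.70, 1.17 and 1.21 CPM in the controls (chromosome 4, 14502430 to 14621805, minus strand). These values rest on 1, 2 and 10 counts in the knockout and 18, 12 and 11 in the controls, and although the groups did not overlap, knockout replicate 3 lay close to the controls. The log2 fold change was -1.63 (SE 0.56, 3.09-fold lower, adjusted p = 0.0204). Without knockout replicate 3 it was -3.05, and without knockout replicate 1, knockout replicate 2 or control replicate 1 the call was lost (adjusted p = 0.106, 0.120 and 0.108), as it was with DESeq2 (0.0619) and on TPM without a filter (0.123).

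Slc26a9, a chloride transporter of airway and stomach, had 3.25, 5.26 and 4.54 CPM in the knockout and 1.22, 0.972 and 2.10 CPM in the controls (chromosome 1, 131744022 to 131771504, plus strand). All knockout libraries lay above all controls, and the level was 3.09-fold higher (log2 fold change 1.63, SE 0.32, adjusted p = 0.000145). On TPM the call was lost (adjusted p 0.0753 to 0.0840). Slc26a9 averaged 1.61 TPM in the knockout and 0.633 TPM in the controls.

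The remaining SLC26 carriers with enough counts did not pass. Slc26a2, a sulfate carrier needed for cartilage, had 26.5, 33.1 and 33.99 CPM in the knockout and 26.7, 23.7 and 29.3 CPM in the controls. Knockout replicate 1 lay within the control range, and the log2 fold change of 0.24 (95% interval 0.04 to 0.44) gave an adjusted p of 0.0694, which became 0.00846 without that library and 0.0365 without control replicate 3. Slc26a10 and the sulfate carrier Slc26a11 each had a log2 fold change of 0.05, with 95% intervals of -0.21 to 0.32 for Slc26a10 and -0.31 to 0.42 for Slc26a11. Exons of B4galnt1 on the opposite strand cover 17.8% of Slc26a10's exon length. Slc26a6, the apical chloride and oxalate exchanger of the proximal tubule, averaged 2.67 ± 0.472 CPM in the knockout and 2.49 ± 0.976 CPM in the controls (SD, n = 3 each; adjusted p = 0.801).

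Pendrin, encoded by Slc26a4 and known from intercalated cells and the thyroid, had 1 count over the knockout and 5 over the controls, and Slc26a8 had 5 in each group. Slc26a3 of the colon and Slc26a5, the motor protein of cochlear hair cells, were at 0. In the SLC13 family only the citrate and dicarboxylate carrier Slc13a2 was tested, at between 0.486 and 1.64 CPM over the 6 libraries, and it was not called (log2 fold change 0.32, adjusted p = 0.631). Exons of its antisense gene Slc13a2os cover 26.2% of its exon length. The sulfate carrier Slc13a1 had 5 counts over the knockout and 8 over the controls, the citrate carrier Slc13a5 had 21 in each group, Slc13a3 had 2 in each, and Slc13a4 had 1 over the knockout and 2 over the controls.

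Sulfate that enters is activated to the donor PAPS. All 6 listed genes of that pathway were tested, of which 1 was higher, 4 were lower and 1 was not called (median log2 fold change -0.20). The phosphatases Impad1 and Bpnt1, which clear the by-product of sulfation, were 1.17-fold and 1.13-fold lower (adjusted p = 0.00106 and 0.0397). Slc35b2, a PAPS carrier of the Golgi, was 1.25-fold lower (adjusted p = 0.00470), and Slc35b3, another PAPS carrier, was 1.24-fold higher (adjusted p = 0.0412). All 4 calls were lost on TPM. The Bpnt1 call was also lost with DESeq2 (adjusted p = 0.0935), with no filter beyond 1 count (0.0724), without knockout replicate 2 (0.184) or 3 (0.107) and without control replicate 1 (0.0890), 2 (0.0989) or 3 (0.0801). The Slc35b3 call was lost with library totals (0.0625), DESeq2 (0.0882) and limma-voom (0.0507), without knockout replicate 1 (0.147) or 2 (0.0822) and without control replicate 1 (0.0983) or 3 (0.137). The Slc35b2 call was lost without knockout replicate 2 (0.0511) or control replicate 3 (0.0645).

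Slc22a5, which encodes OCTN2 and takes up carnitine for fatty acid oxidation, was lower in the knockout, and the classical organic cation carriers were at or near 0. Of the 7 carriers of organic cations and carnitine in the SLC22 family 3 were tested, of which 1 was lower and 2 were not called. The Slc22a5 250-base window before the RefSeq start (GRCm38.p6, chr11:53891704-53891953, minus strand, 5′ to 3′) holds neither ETS core searched, AGGAAG or CGGAAG, on either strand. It is shown because Slc22a5 fell the most among called carriers with at least 5 CPM in either group. Slc26a1, which fell further at a lower level, has AGGAAG in its window.
Slc22a5: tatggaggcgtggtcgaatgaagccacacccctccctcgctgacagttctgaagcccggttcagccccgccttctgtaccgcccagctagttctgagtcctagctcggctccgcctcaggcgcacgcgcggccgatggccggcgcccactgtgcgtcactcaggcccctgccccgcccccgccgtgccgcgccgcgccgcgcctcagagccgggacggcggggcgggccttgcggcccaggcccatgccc

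Slc22a5 (chromosome 11, 53864542 to 53891660, minus strand) had 9.43, 7.52 and 11.2 CPM in the knockout and 14.4, 17.8 and 15.02 CPM in the controls. The highest knockout library lay below the lowest control, and the level was 1.68-fold lower (log2 fold change -0.75, SE 0.15, adjusted p = 0.000176). The call was lost on TPM without a filter (adjusted p = 0.0736). Counts were fractional in all 6 libraries for Slc22a5 and for its neighbour Slc22a21, a mouse carnitine carrier, so reads shared between them were divided and both values are uncertain. Slc22a21 averaged 1.81 ± 0.568 CPM in the knockout and 1.74 ± 0.314 CPM in the controls (SD, n = 3 each; adjusted p = 0.897). Slc22a4, the ergothioneine carrier beside them on chromosome 11, averaged 1.98 ± 0.364 CPM in the knockout and 1.88 ± 0.883 CPM in the controls (SD, n = 3 each; adjusted p = 0.869).

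The organic cation carriers Slc22a2 and Slc22a3 lie together on chromosome 17. Slc22a2, the main cation carrier of the basolateral proximal tubule, had 0 counts over the knockout and 5 over the controls. Slc22a3 and the carnitine carrier Slc22a16 were at 0. Slc47a1, which encodes MATE1 and extrudes cations into the urine in exchange for protons, had 7.85, 4.23 and 6.57 CPM in the knockout and 7.82, 10.5 and 9.61 CPM in the controls (chromosome 11, 61343401 to 61378345, minus strand). Knockout replicate 1 lay level with control replicate 1, so the groups overlapped. The level was 1.51-fold lower (log2 fold change -0.59, SE 0.20, adjusted p = 0.0188), but without knockout replicate 2 the log2 fold change was -0.37 and the call was lost (adjusted p = 0.165), as it was without control replicate 2 (0.106) or 3 (0.0603) and on TPM (0.155 to 0.262). Its neighbour Slc47a2 was at 0.

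Of 9 listed genes of carnitine and choline use, all were tested, 1 was higher, 2 were lower and 6 were not called (median log2 fold change -0.07). Slc25a20, the carnitine and acylcarnitine exchanger of mitochondria, was 1.24-fold higher (adjusted p = 0.00268). The choline transporter Slc44a2 was 1.25-fold lower (adjusted p = 0.000196) and the choline kinase gene Chka 1.22-fold lower (adjusted p = 0.000811).

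The renal organic anion carriers were almost absent from these libraries, and the abundant SLC22 genes were orphans. Of 18 such carriers 4 were tested, of which 1 was higher and 3 were not called. Slc22a6, Slc22a7 and the urate carrier Slc22a12 were at 0 in all 6 libraries, as were Slc22a19, Slc22a20, Slc22a22, Slc22a26, Slc22a27, Slc22a28, Slc22a29 and Slc22a30. Slc22a8, which encodes OAT3, had 6 counts over the knockout and 0 over the controls. Slc22a14 had 3 over the knockout and 0 over the controls, and Slc22a13 had 0 over the knockout and 5 over the controls, all 5 in control replicate 2.

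Slc22a23, an orphan carrier, had 127, 129 and 133 CPM in the knockout and 118, 121 and 112 CPM in the controls (chromosome 13, 34179158 to 34345182, minus strand). The groups did not overlap, yet the difference was only 1.11-fold (log2 fold change 0.15, SE 0.06, adjusted p = 0.0400), and under 10 of 16 other processing choices the adjusted p was above the threshold, over a range of 0.0272 to 0.271. The losses included leaving out knockout replicate 2 (0.0608) or 3 (0.132) and control replicate 1 (0.0792) or 3 (0.126). Slc22a18, an imprinted orphan carrier, averaged 12.8 ± 1.32 CPM in the knockout and 11.4 ± 2.07 CPM in the controls, and Slc22a15 averaged 11.6 ± 1.18 CPM in the knockout and 10.9 ± 0.558 CPM in the controls (SD, n = 3 each). The log2 fold changes were 0.17 for Slc22a18 (95% interval -0.12 to 0.46) and 0.09 for Slc22a15 (-0.20 to 0.37). Slc22a17, reported as a receptor of lipocalin 2, had 11.7, 7.62 and 7.73 CPM in the knockout and 8.10, 7.58 and 7.84 CPM in the controls. Only knockout replicate 1 was high, and the log2 fold change of 0.19 (95% interval -0.17 to 0.54) became -0.026 without it.

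ABC pumps move many of the same compounds out of the cell. Of 10 listed, 9 were tested, of which 1 was higher, 3 were lower and 5 were not called (median log2 fold change -0.06). Abcc2, an apical pump of conjugated anions, was 2.55-fold lower, at 1.77 ± 0.741 CPM in the knockout and 4.50 ± 0.819 CPM in the controls (SD, n = 3 each; adjusted p = 0.000785). Abcg2, a pump of urate and drugs, was 1.71-fold lower (adjusted p = 1.16e-06), and Abcc5, a cyclic nucleotide pump, was 1.19-fold lower (adjusted p = 0.00462). Abcc4, which exports prostaglandins and cyclic nucleotides, was 1.14-fold higher (adjusted p = 0.00287).

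Of the organic anion transporting polypeptides, 15 carriers of which 6 were tested, 3 were higher, 2 lower and 1 not called. The abundant Slco2a1 and Slco3a1 moved in opposite directions, and so did the neighbouring low-level genes Slco1a5 and Slco1a6. Slco2a1, which takes up prostaglandins for degradation, had 238, 262 and 259.97 CPM in the knockout and 188, 200.1 and 200.2 CPM in the controls (chromosome 9, 102988712 to 103096002, plus strand). No library of the knockout lay within the control range, and the rise was 1.29-fold (log2 fold change 0.37, SE 0.05, adjusted p = 8.63e-07). Slco3a1, a carrier of prostaglandins and thyroxine, had 73.2, 74.6 and 78.7 CPM in the knockout and 108, 99.8 and 101 CPM in the controls (chromosome 7, 74275419 to 74554780, minus strand). All knockout libraries lay below all controls, and the level was 1.37-fold lower (log2 fold change -0.45, SE 0.06, adjusted p = 1.12e-06). The ratio of Slco2a1 to Slco3a1 TPM was 1.78 ± 0.0133 in the knockout and 1.03 ± 0.0933 in the controls (SD, n = 3 each).

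Slco5a1, an orphan of the family, had 18.1, 24.5 and 22.1 CPM in the knockout and 15.1, 15.9 and 11.8 CPM in the controls (chromosome 1, 12866549 to 12992650, minus strand). The groups did not overlap, and it was 1.51-fold higher (log2 fold change 0.59, SE 0.13, adjusted p = 0.000482), though not on TPM (adjusted p 0.120 to 0.220). Slco4a1, a thyroid hormone carrier, averaged 6.16 ± 1.04 CPM in the knockout and 5.27 ± 1.17 CPM in the controls (SD, n = 3 each; log2 fold change 0.23, 95% interval -0.19 to 0.64).

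The Slco1 genes of chromosome 6, whose products carry bile acids and steroid conjugates in mouse liver and kidney, form a run of 6 neighbours each within 200 kb of the next. Slco1a6 (142085761 to 142208521, minus strand) had 0.224, 0.658 and 0.386 CPM in the knockout and 1.88, 1.65 and 1.66 CPM in the controls. These are 2, 7 and 4 counts in the knockout and 20, 17 and 15 in the controls, without overlap, and the log2 fold change was -1.97 (SE 0.48, 3.92-fold lower, adjusted p = 0.00144). Slco1a5 (142234227 to 142322981, minus strand) had 1.01, 1.88 and 1.35 CPM in the knockout and 0.377, 0.583 and 0.773 CPM in the controls. Here the knockout libraries lay above the controls, on 9, 20 and 14 counts in the knockout and 4, 6 and 7 in the controls (log2 fold change 1.31, SE 0.48, 2.48-fold, adjusted p = 0.0297). Neither call held on TPM, where the adjusted p was 0.505 to 0.580 for Slco1a6 and 0.515 to 0.553 for Slco1a5. The Slco1a5 call was also lost without knockout replicate 2 (adjusted p = 0.185) or 3 (0.0605) and without control replicate 1 (0.144) or 2 (0.0788), with DESeq2 (0.0936) and with no filter beyond 1 count (0.0613). Of the other neighbours, Slco1a1 had 1 count in each group, Slco1b2 and Slco1c1 had 1 over the knockout and 0 over the controls, and Slco1a4 was at 0.

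Slco2b1 had 0 counts over the knockout and 3, 1 and 2 counts in the control libraries. Slco4c1, the kidney member of the family, had 1 count in each group. Slco6c1, Slco6d1 and the pseudogene Slco6b1 were at 0.

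A few carriers held most of the summed level in both groups. Per transcript length, the most abundant by mean TPM were Slc20a1, Slco2a1, Slc20a2, Slco3a1 and Slc22a23, which together held 72.0 ± 1.46% of the summed TPM of the 74 in the knockout and 70.1 ± 0.268% in the controls (SD, n = 3 each). Their summed level was 403 ± 30.5 TPM in the knockout and 339 ± 9.12 TPM in the controls over all 74 (SD, n = 3 each). Of the 74, 6 had a mean of at least 10 TPM over the 6 libraries, 28 at least 1 TPM, and 52 a value above 0. In the knockout Slc20a2 and Slco2a1 stood side by side, at 61.3 ± 5.73 and 62.0 ± 4.24 TPM, closer than their spread. In the controls Slco2a1 and Slco3a1 did so, at 48.0 ± 2.07 and 46.7 ± 2.31 TPM.

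**Figure D3:**
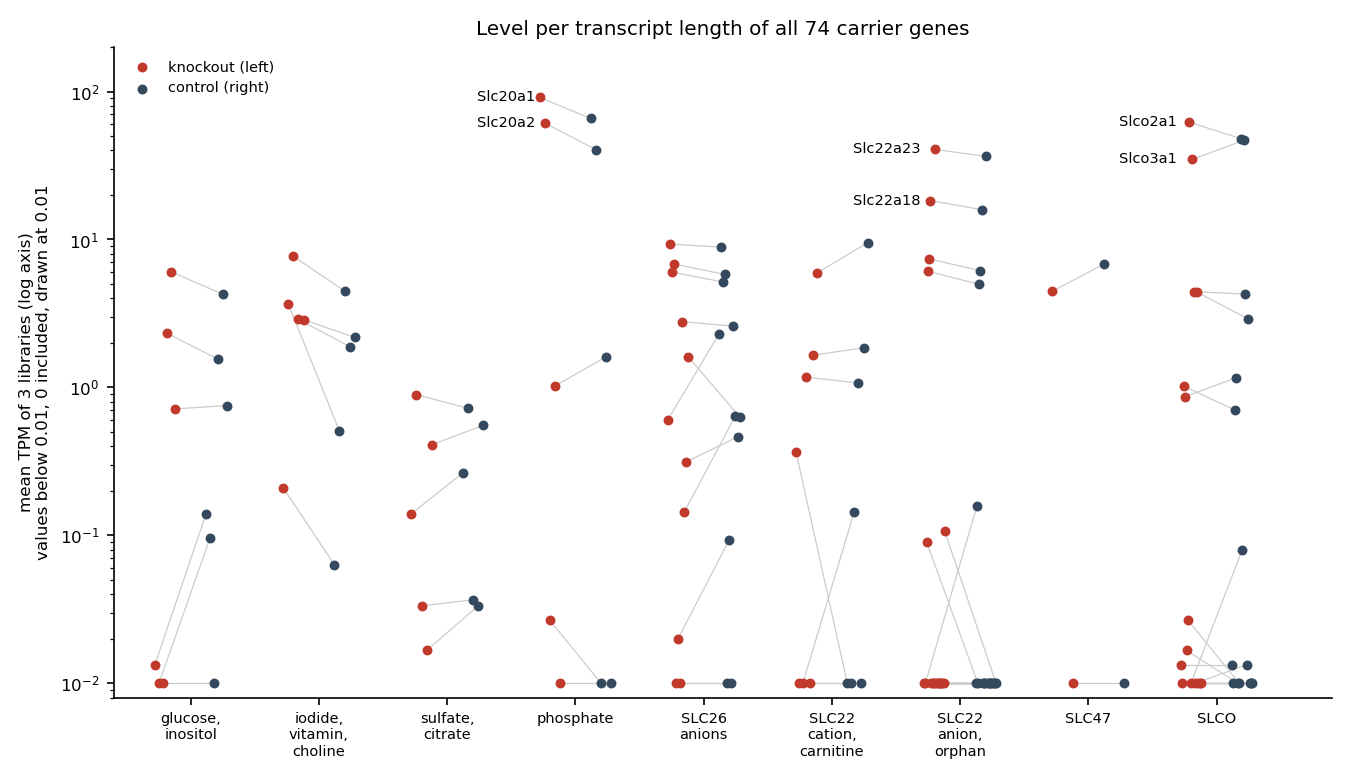
The plot of levels gives the mean TPM of 3 libraries on a log axis for all 74 carriers in their substrate groups, knockout left and control right, joined by a line, with values below 0.01 drawn at 0.01. The named carriers are the 6 with at least 10 TPM, led by Slc20a1 at 91.3 TPM in the knockout and 65.7 TPM in the controls, and the lines of Slco2a1 and Slco3a1 start apart in the knockout and meet in the controls.

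Some proteins that anchor or regulate these carriers, and factors that drive their genes, were called, as were 36.6% of all tested genes, 18.3% in each direction. Of 10 listed scaffolds and regulators, all tested, 2 were higher, 3 were lower and 5 were not called (median log2 fold change -0.08). The kinases Wnk1 and Sgk1 were 1.46-fold and 1.96-fold higher (adjusted p = 3.97e-11 and 2.88e-07), and Wnk4 was 1.92-fold lower (adjusted p = 2.58e-08). Pdzk1ip1, a small membrane protein that partners SGLT2, was 1.501-fold lower (adjusted p = 1.72e-06), and the scaffolds Pdzk1 and Slc9a3r1 were not called.

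Of 13 listed transcription factors and nuclear receptors 11 were tested, with 2 higher, 4 lower and 5 not called (median log2 fold change 0.11). Hnf4a, a factor of tubule carrier genes, was 1.89-fold lower (adjusted p = 2.12e-05), and Ahr, the receptor of dioxin, was 1.86-fold lower (adjusted p = 1.01e-06). Of 9 listed subunits and partners of the sodium pump 6 were tested, with 2 higher, 2 lower and 2 not called (median log2 fold change -0.07). The β subunit gene Atp1b1 was 1.47-fold lower (adjusted p = 2.51e-10). The regulator Fxyd5 was 2.05-fold higher (adjusted p = 7.51e-07).

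Markers of nephron segments were called in both directions, though mostly lower for the proximal tubule and for the loop and distal tubule. The 9 tested proximal tubule markers, 5 lower and 1 higher, had a median log2 fold change of -0.80. Loop and distal markers, with 3 of 10 tested and 2 of them lower, summed to between 10.6 and 12.99 TPM in the knockout and between 20.7 and 21.8 TPM in the controls, with Kcnj1 and Pvalb at 0. The median log2 fold change of those 3 was -0.84. Collecting duct markers, with 3 of 10 tested, 1 higher and 1 lower, summed to between 28.4 and 30.2 TPM in the knockout and between 17.7 and 21.98 TPM in the controls, with Aqp2 and Foxi1 at 0. Most of that sum was Hsd11b2, which converts cortisol or corticosterone to inactive forms, at 26.6 ± 1.51 TPM in the knockout and 13.4 ± 0.0436 TPM in the controls (SD, n = 3 each). The epithelial sodium channel gene Scnn1g was lower, Gata3 was not called, and the median log2 fold change of the 3 tested was -0.27. Slc26a4 of that list is one of the carriers. The 6 endothelial markers summed to between 2.27 and 2.99 TPM in the knockout and between 0.52 and 0.80 TPM in the controls, with Kdr, the one tested, higher and Tie1 at 0. Of 8 leukocyte markers 7 were tested and not called by edgeR, with Cd3e at 0. Of 8 fibroblast markers 6 were tested, 2 were higher, 1 was lower and 3 were not called, with Lum at 0. Of the 6 pan-epithelial markers 4 were higher and 2 lower. The part of these markers in the carrier results was not tested.

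Promoter windows of 250 bases before the most upstream RefSeq start were found for 60 of the 74 carriers and 10 of the 15 called ones. On both strands, AGGAAG was present in 21 of the 60 and in 5 of the 10 called, beside 29.2% of 27025 windows of all genes, and in 4 of 12 that were tested and not called. CGGAAG was present in 4 of the 60 and 1 of the 10 called, beside 13.8% of all windows. Either core was present in 22 of the 60, beside 39.0% of all windows. The called carriers with a core were Slc5a3, Slc5a5, Slc26a1, Slc26a9 and Slco2a1, of which Slco2a1 held both, and Slc26a1 is the only one of them that was lower. A match is a description of the letters and not of binding.

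**Figure D4:**
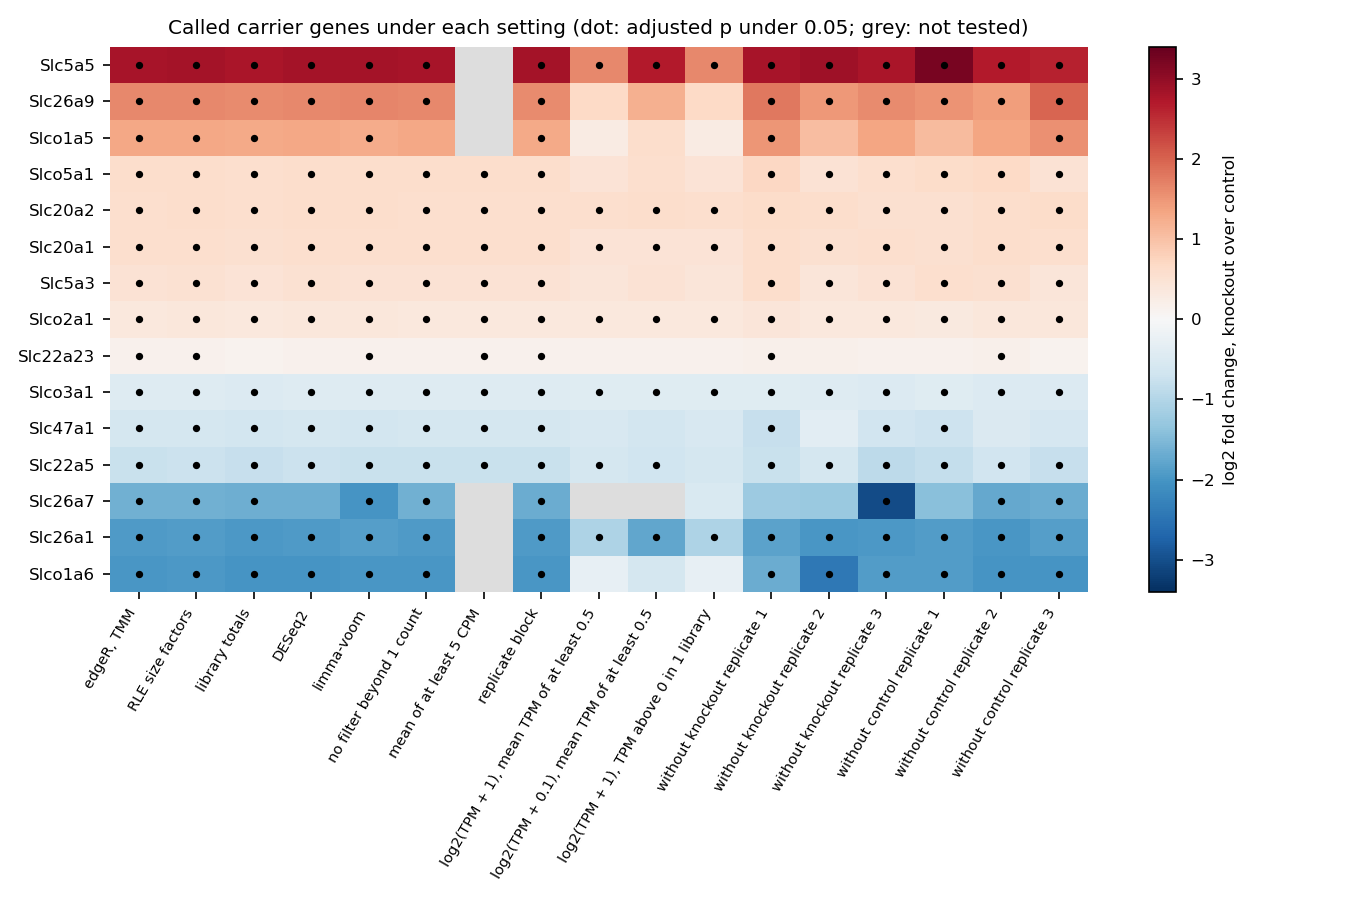
The map of processing choices has a row for each of the 15 called carriers and a column for the test as reported and each of 16 other choices, with the log2 fold change of knockout over control as colour, a dot where the adjusted p was under 0.05 and grey where the carrier was not tested. Slc5a5, Slc20a1, Slc20a2, Slc26a1, Slco2a1 and Slco3a1 carry a dot in every column where they were tested, and no carrier changes between red and blue.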

How the data were processed

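Enriched mRNA of 3 knockout and 3 control samples was sequenced, and groups were taken from the sample titles. Salmon, featureCounts and mm10 are named without version or role, per the submitters' processing notes. The authors deposited estimated counts per gene without normalisation, of which 93.3% of nonzero values were whole within 1e-06, with a fractional value in 2063 genes. The authors also deposited TPM, scaled per transcript length to the same sum in each library. The annotation release, any read filter and the handling of strand are not stated in the labels.

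Counts were rounded, and knockout was tested over control with edgeR 4.0.16 (quasi-likelihood, filterByExpr, TMM, no covariates) in R 4.3.3. P-values were adjusted by Benjamini-Hochberg over 13755 tested genes, at a threshold of 0.05. CPM are TMM-normalised. The biological coefficient of variation was 5.35%. Exact intervals of count ratios and floors cover counting error only. Intervals of log2 fold changes are 1.96 standard errors of the fit wide on either side and include the spread between libraries. Counts of replicates differed by more than sampling noise (chi-square per degree of freedom 2.02 to 3.65). The test was first checked on simulated counts.

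The carriers, the lists of partner genes and the markers were chosen with earlier results of these data known. Every called carrier is named, as is every tested one with at least 5 CPM in either group, and up to 4 called genes of smallest p in each partner list. Tested carriers with fractional counts or with exons that overlap another tested gene are uncertain, and the text gives the overlap. Positions are from GENCODE M21 and promoters from RefSeq on GRCm38.p6. The alternatives were leaving out each library, a block on the replicate number, DESeq2 1.42.0, limma-voom (limma 3.58.1), library totals or RLE size factors for scaling, a minimum mean of 5 CPM or no filter beyond 1 count, and limma on log2(TPM + 1) or log2(TPM + 0.1). The pseudocount makes differences on the log2(TPM + pseudocount) scale too small for low genes. Values of 1 carrier and of some listed genes are not reported here.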

Additional observations from a re-analysis of the deposited data

How the results depend on the processing

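Of the 15 called carriers, Slc5a5, Slc20a1, Slc20a2, Slc26a1, Slco2a1 and Slco3a1 stayed called under each of 16 alternatives that could be fitted, and none of the 15 changed sign under any. For Slc5a5 and Slc26a1 that was 15 of the 16, as both were too low to be tested at a mean of at least 5 CPM. On TPM, 4 carriers were called higher under each of the 3 forms of the test, beside 9 on counts. Lower calls were 3 with log2(TPM + 1), 3 with log2(TPM + 0.1) and 2 without a filter, beside 6, and 3 at a mean of at least 5 CPM, where low carriers are not tested. Over all genes on TPM, 1421, 1412 and 1195 were higher and 1291, 1304 and 980 lower, beside 2516 and 2512. At the CPM minimum, 2240 were higher and 2230 lower of 11070 genes. Apart from that CPM minimum, the cause was not tested. Leaving out 1 library gave 7 to 10 higher and 4 to 7 lower carriers, and over all genes 2161 to 2583 higher and 2031 to 2426 lower. Among carriers not called, the sign turned for Slc22a17 without knockout replicate 1, for Slc26a11 without control replicate 1 and for Slc26a10 without control replicate 3, with log2 fold changes over the libraries left out of -0.026 to 0.30 for Slc22a17, -0.12 to 0.17 for Slc26a11 and -0.063 to 0.17 for Slc26a10. For Slc5a7 the log2 fold change was 0.26 with log2(TPM + 1), 0.29 with log2(TPM + 0.1) and 0.26 without a filter. Samples of the same replicate number did not deviate together (correlations 0.00734, 0.00251 and 0.00343), so no pairing by number was visible. The labels do not say if same-numbered samples were matched. With the replicate block 9 carriers were higher and 6 lower, the same 15, and over all genes 2561 were higher and 2585 lower. Of 33 partner genes chosen by the naming rule, 14 stayed called under every alternative, 19 were lost under at least 1, and 0 changed sign. Beside the losses given for Slc2a2 and the sulfate activation genes, Abcg2, Abcc2, Abcc4, Abcc5, Fgfr4, Slc38a2, Hspa4l, Slc44a2 and Chka were lost under all 3 forms of the TPM test, and Nfat5, Ahr, Ank and Slc2a9 on TPM without a filter. Depth limits the 42 untested carriers, none of which had more than 21 counts in a group.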
